A study of Mus musculus with 20 samples.

Results

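The enzymes that attach ubiquitin to proteins and remove it were examined as a group in maps of N6-methyladenosine (m6A), a methyl mark on messenger RNA, from 3 regions of the mouse brain. Members were all listed genes whose symbol begins with one of the stems Usp, Ube, Uba, Trim, Rnf, Fbx, Cul, Klhl, Kbtbd, Herc, Hecw, Hectd, March, Nedd4, Otud, Skp1 or Arel1. A digit had to follow Usp, Ube, Uba, Trim and Cul. The rule used no measured value, but its stems were chosen with earlier results of these data known. It took in 121 of 3731 genes with an edited site in any region, and 679 of 25978 edited positions.

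Ubiquitin is a small protein that is activated by an E1 enzyme, passed to an E2 conjugating enzyme and joined to a substrate with the help of an E3 ligase. HECT ligases carry ubiquitin on their own cysteine, RING and U-box ligases bring the E2 to the substrate, and cullin-RING ligases use a cullin scaffold with exchangeable adaptors such as F-box and Kelch proteins. Deubiquitinating enzymes remove the tag. In neurons this system is known for clearing misfolded proteins and for trimming synaptic receptors and scaffolds.

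The mice expressed APOBEC1-YTH, a fusion of a cytidine deaminase with an m6A-binding domain that is switched on by tamoxifen and edits cytidines close to an m6A, so that they are read as uridines in the RNA-seq reads. Cortex, hippocampus and cerebellum each had 4 APOBEC1-YTH libraries, from the same 4 animal numbers. They also had 3, 2 and 3 libraries, in that order, from 3 animals expressing APOBEC1-YTHmut, taken here as the background control for editing. Whether the listed sites were filtered against these libraries is not given in the sources used here. All animals of both kinds received tamoxifen at 20 mg/kg every 24 h for 5 days, and tissue was collected 7 days after the last dose. Which promoter or cell type drives the transgene, and how old the animals were, is not given in the sources used here.

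Each region is represented by 1 list of sites. A site has a position on the mm10 genome, a gene symbol and 1 value, read here as the percentage of edited reads and called the editing level. No header or label states what the value is. It is assumed to stand for the combined APOBEC1-YTH libraries of a region. There is 1 value per site, so levels have no replicate error, no test was made, and differences below are descriptions of 3 lists. Read depth and expression are not in the lists: the tissue labels could not be checked against marker levels, a gene without a listed site may be unmethylated, lowly expressed or thinly read, and in these bulk samples fewer cells of a type and less RNA per cell cannot be told apart.

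Members were listed about as widely as other genes, and cortex held the most. Cortex listed 107 members with 480 sites, hippocampus 83 with 375 and cerebellum 75 with 296. These are 88.4%, 68.6% and 62.0% of the members, against 84.8%, 68.3% and 59.7% of all listed genes. A site in every region was found for 55 members, or 45.5%, against 43.1% of all listed genes. A further 21 members (17.4%, all genes 17.7%) had sites in cortex and hippocampus without cerebellum, 12 (9.92%, all genes 6.62%) in cortex and cerebellum without hippocampus, and 1 (0.826%, all genes 2.25%) in hippocampus and cerebellum without cortex. Cortex alone listed 19 members (15.7%, all genes 17.4%), hippocampus alone 6 (4.96%, all genes 5.23%) and cerebellum alone 7 (5.79%, all genes 7.75%).

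Measured against the annotation, the stems were listed more often than protein-coding genes at large. Of 425 annotated protein-coding genes that match the rule, 120 had a site (28.2%), against 16.7% of all 21900 protein-coding genes. Because the stems were chosen with earlier results of these data known, this share is not an independent result about the family. Skp1 and Arel1, for example, are stems of 1 annotated gene each, and both genes were listed. The share differed between stems. Ube symbols, most of which are conjugating enzymes, had a site in 24 of 42 genes, and Herc symbols in 3 of 5. Trim symbols had one in 10 of 68, Fbx symbols in 17 of 78 and Usp symbols in 13 of 56. Neither of the 2 Hecw genes was listed. How far expression in brain differs between these families was not tested.

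Member sites were mostly weakly edited, as were those of other genes. For cortex, hippocampus and cerebellum in turn, member sites had medians of 2.65%, 2.7% and 3.26%, against 2.91%, 2.82% and 3.36% over all listed sites. At 10% or above were 26 cortical (5.42%), 24 hippocampal (6.40%) and 29 cerebellar (9.80%) member sites. The shares over all genes were 6.54%, 6.14% and 8.99%. Listed members had fewer sites each than the average listed gene, with 4.49 against 5.65 in cortex, 4.52 against 5.29 in hippocampus and 3.95 against 5.11 in cerebellum. A few members held much of the total: the 5 with the most positions held 21.6% of all member positions and the 20 with the most held 51.7%, while 30 members had a single position.

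**Figure D1:**
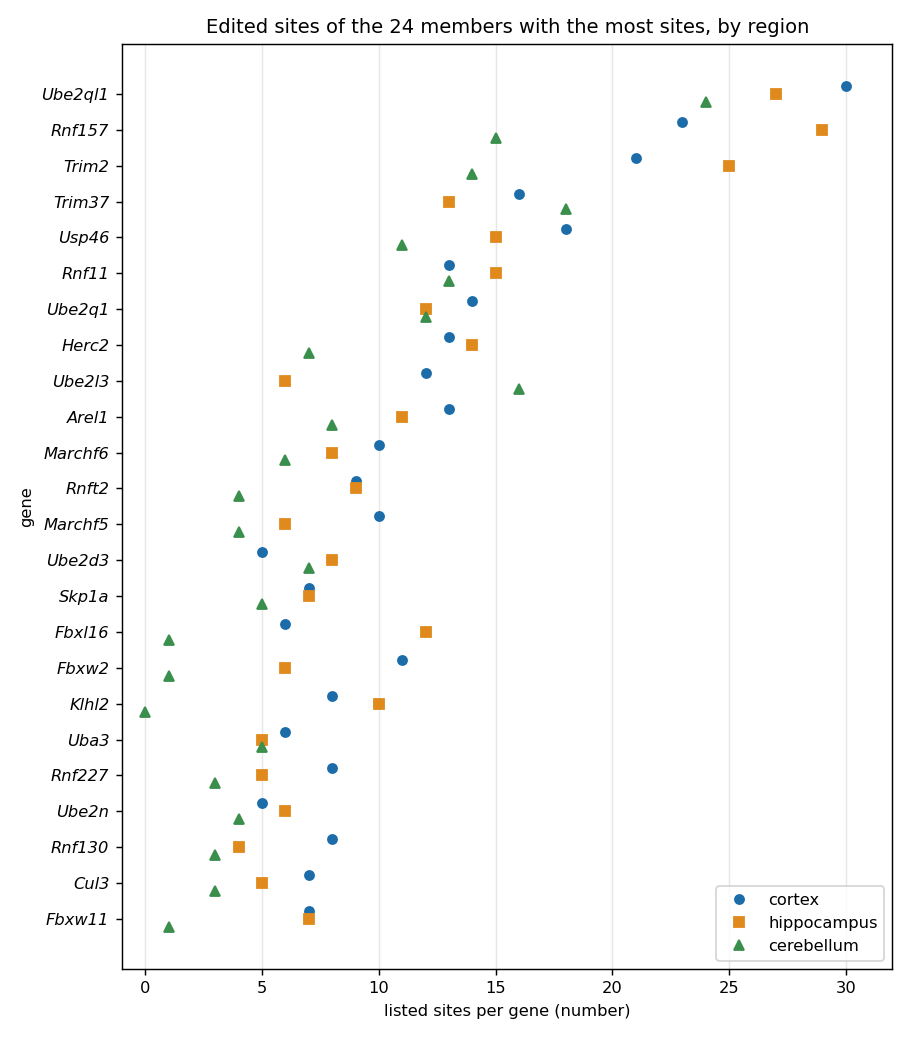
Number of listed sites per gene (x axis) for the 24 members with the most sites, by region (circles cortex, squares hippocampus, triangles cerebellum). Ube2ql1 stands highest in cortex and cerebellum with 30 and 24 sites, and Rnf157 in hippocampus with 29, while Rnf13, outside the 24, had 9 sites in cerebellum and 2 in each forebrain list.

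By role, the members comprised 2 activating enzymes, 20 conjugating enzymes, 10 HECT ligases, 40 RING or U-box ligases, 34 scaffolds and adaptors of cullin-RING ligases and 14 deubiquitinating enzymes. The remaining member, Usp6nl, is a Rab GTPase-activating protein that carries the stem by name alone, and had 1 cerebellar site at 5.41%. The roles differed in how their sites were distributed. Of conjugating-enzyme positions 30.2% were listed in all 3 regions, and of RING and U-box positions 26.6%, whereas cullin-RING scaffolds and adaptors had 7.35% and deubiquitinating enzymes 9.52%. The value over all genes was 19.0%. The conjugating-enzyme share rests largely on 2 genes: of its 42 positions in all 3 lists, Ube2ql1 held 18 and Ube2q1 9. Other roles also rest on few genes. Of the 70 such RING and U-box positions, Rnf157 held 13, Trim37 10, Rnf11 9 and Trim2 8. Usp46 held 5 of the 6 such positions of deubiquitinating enzymes. Scaffolds and adaptors had 101, 73 and 28 sites in cortex, hippocampus and cerebellum, and conjugating enzymes had 101, 75 and 82.

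**Figure D2:**
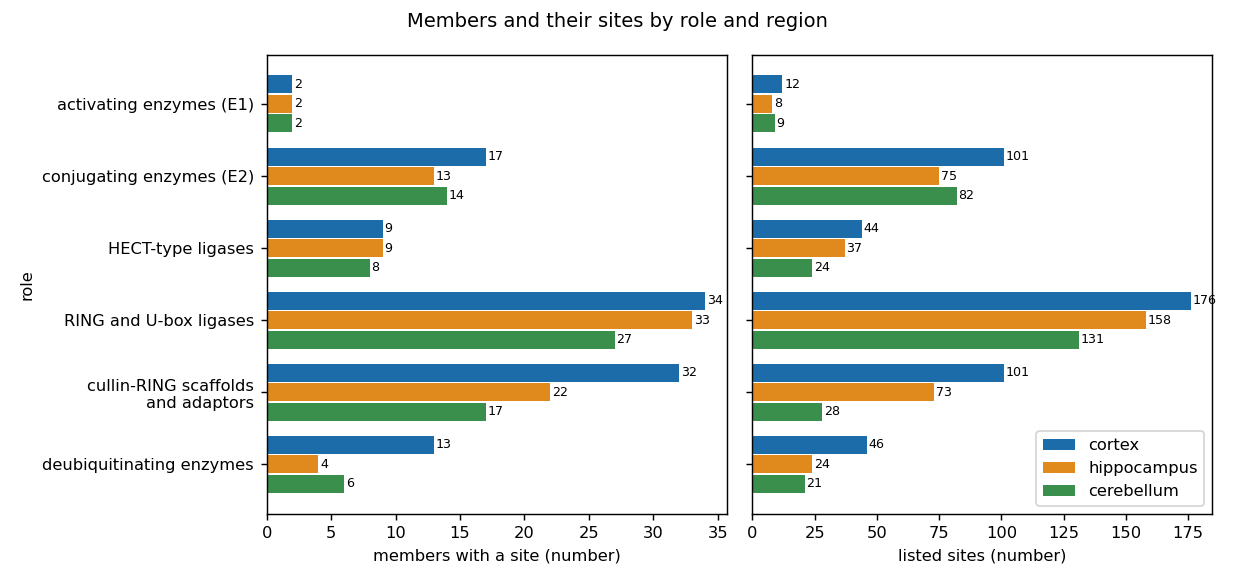
Members with at least 1 site (left) and listed sites (right) by role, with 1 bar per region and the number at its end. Deubiquitinating enzymes were listed for 13 genes in cortex against 4 in hippocampus and 6 in cerebellum, and cullin-RING sites numbered 101, 73 and 28.

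Of the activating enzymes, Uba3 is the catalytic subunit of the E1 for NEDD8, the ubiquitin-like modifier that switches cullins on. It had 6, 5 and 5 sites in cortex, hippocampus and cerebellum, with mean levels of 6.20%, 5.45% and 8.62%. The Uba3 site at position 97184588 of chromosome 6 had its lowest level in hippocampus, with 17.4% in cortex, 7.69% in hippocampus and 14.3% in cerebellum. Cerebellum and cortex were thus closer to each other there than either was to hippocampus. Another Uba3 site, at 97184292, was listed at 6.6% in hippocampus and 13.3% in cerebellum and not in cortex.

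Conjugating enzymes held the member with the most sites. Ube2ql1, an E2 of the Q family, had 34 positions, of which 18 were listed in all 3 regions, and cortex, hippocampus and cerebellum listed 30, 27 and 24 sites. By number of sites it ranked 70th, 66th and 71st among all genes of the respective list. The mean levels in the same order were 3.84%, 3.79% and 5.00%. Its highest site, at position 69703892 of chromosome 13, had 9.71%, 12.6% and 14.2%. A site at 69703457 had 5.66% in cortex, 4.64% in hippocampus and 13.9% in cerebellum. Of 23 sites shared by cortex and cerebellum, 15 were higher in cerebellum, 7 lower and 1 equal. All but 1 of its 34 positions lay between 31 and 1190 nt of the annotated 3′ end, in a single stretch.

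Ube2q1, a relative in the same family, had a different regional pattern, with its strongest editing in cortex. It had 14, 12 and 12 sites in cortex, hippocampus and cerebellum, with means of 7.85%, 6.25% and 5.96%. The site at position 89782603 of chromosome 3 had 21.0% in cortex, 9.52% in hippocampus and 9% in cerebellum. Its neighbour at 89782586 had 19.7%, 8.07% and 5.94%. At 89782503, close by, the levels were 15.2%, 17.0% and 15%, so the regional difference was not shared by all sites of the transcript. Of 10 sites listed in both cortex and cerebellum, 8 were lower in cerebellum.

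Ube2l3, an E2 that works with HECT ligases and with parkin, had 12, 6 and 16 sites in the order cortex, hippocampus, cerebellum. Only 3 of its 21 positions were in all 3 lists, and its highest, at position 17153592 of chromosome 16, had 9.47%, 5.48% and 6.57%. Ube2n builds ubiquitin chains used in signalling and DNA repair. All 4 of its sites shared by hippocampus and cerebellum were higher in cerebellum, by a median log2 ratio of 1.27. Its site at position 95542360 of chromosome 10 had 4.55% in cortex, 6.25% in hippocampus and 13.95% in cerebellum.

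Ube2b, a homologue of yeast Rad6, showed the reverse: all 4 sites shared by hippocampus and cerebellum were lower in cerebellum, with a median of −0.68. The site at position 51985982 of chromosome 11 had 3.56%, 4.56% and 1.43%. Closely related E2 enzymes were listed in different places. Ube2d3, which works with many RING ligases, had 5, 8 and 7 sites in cortex, hippocampus and cerebellum. Its paralogue Ube2d1 had 4, 0 and 2, and Ube2d2a had 3 sites, all of them in cerebellum. Ube2e1 also had 3 sites in cerebellum and none elsewhere, whereas Ube2e3 had 2 in cortex and 1 in cerebellum. Reads shared between such paralogues, if any, could be divided by the authors' alignment, and this was not tested. Ube2j1, an E2 of endoplasmic reticulum quality control, had 5 cortical, no hippocampal and 2 cerebellar sites. Ube2m, the NEDD8 conjugating enzyme, had 1 cortical site at 1.99%.

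Among HECT ligases, Arel1 and Herc2 had the most sites and differed in opposite directions between cortex and cerebellum. Arel1, known for degrading antagonists of apoptosis inhibitors, had 13, 11 and 8 sites over cortex, hippocampus and cerebellum, with mean levels of 3.27%, 4.56% and 5.93%. Its site at position 84920418 of chromosome 12 had 1.96% in cortex, 7.75% in hippocampus and 11.9% in cerebellum. Of the 6 Arel1 sites shared by cortex and cerebellum, 5 were higher in cerebellum, with a median log2 ratio of 0.72. Herc2, a very large ligase of the DNA damage response, had 13, 14 and 7 sites, with means of 3.68%, 3.41% and 2.64%. Of its 6 sites shared by cortex and cerebellum, 5 were lower in cerebellum, with a median of −1.17, and 4 of them by 2-fold or more. The site at position 56231266 of chromosome 7 had 7.33%, 7.95% and 3.23%, while one at 56231363 had 3.47%, 1.16% and 5.88%.

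The other HECT members had 6 positions or fewer. Ube3c had 5, 1 and 2 sites, Hectd4 3, 3 and 1, and Ube3b 2, 1 and 3. The Ube3b site at position 114421130 of chromosome 5 had 9.09% in cortex, 4.17% in hippocampus and 3.92% in cerebellum. Nedd4l, which removes sodium channels from the membrane, had 2 cortical and 3 hippocampal sites and none in cerebellum, and Nedd4 had 1 hippocampal site at 1.15%.

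RING and U-box ligases were the largest role by sites, with 176, 158 and 131 over the 3 regions. Rnf157, a ligase enriched in brain, was the leading member, with 32 positions, 13 of them in every region, and 23, 29 and 15 sites. Its strongest site, at position 116338604 of chromosome 11, had 23.9% in cortex, 20.9% in hippocampus and 29.8% in cerebellum. The fewer cerebellar sites had a higher mean level, 6.88% against 4.69% in cortex and 4.29% in hippocampus. At the 14 sites listed in both cortex and cerebellum the means were 6.55% and 7.20%, a smaller gap than over all listed sites.

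Trim2, a ligase for neurofilament light chain, had 21, 25 and 14 sites. The higher levels lay in 1 group of sites over 4 kb from the 3′ end, where the site at position 84164727 of chromosome 3 had 4.58%, 3.94% and 10.4% and that at 84164801 had 4.27%, 4.02% and 8.74%. Trim37, a ligase that acts on histone H2A and on centrioles, had 16, 13 and 18 sites and was among the few leading members with more in cerebellum than in cortex. Its site at position 87218886 of chromosome 11 had 15.4% in cortex, 6.75% in hippocampus and 10.45% in cerebellum, whereas the one at 87219086 had 8.25%, 5.68% and 12.4%. These near neighbours thus had their highest level in different regions.

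**Figure D3:**
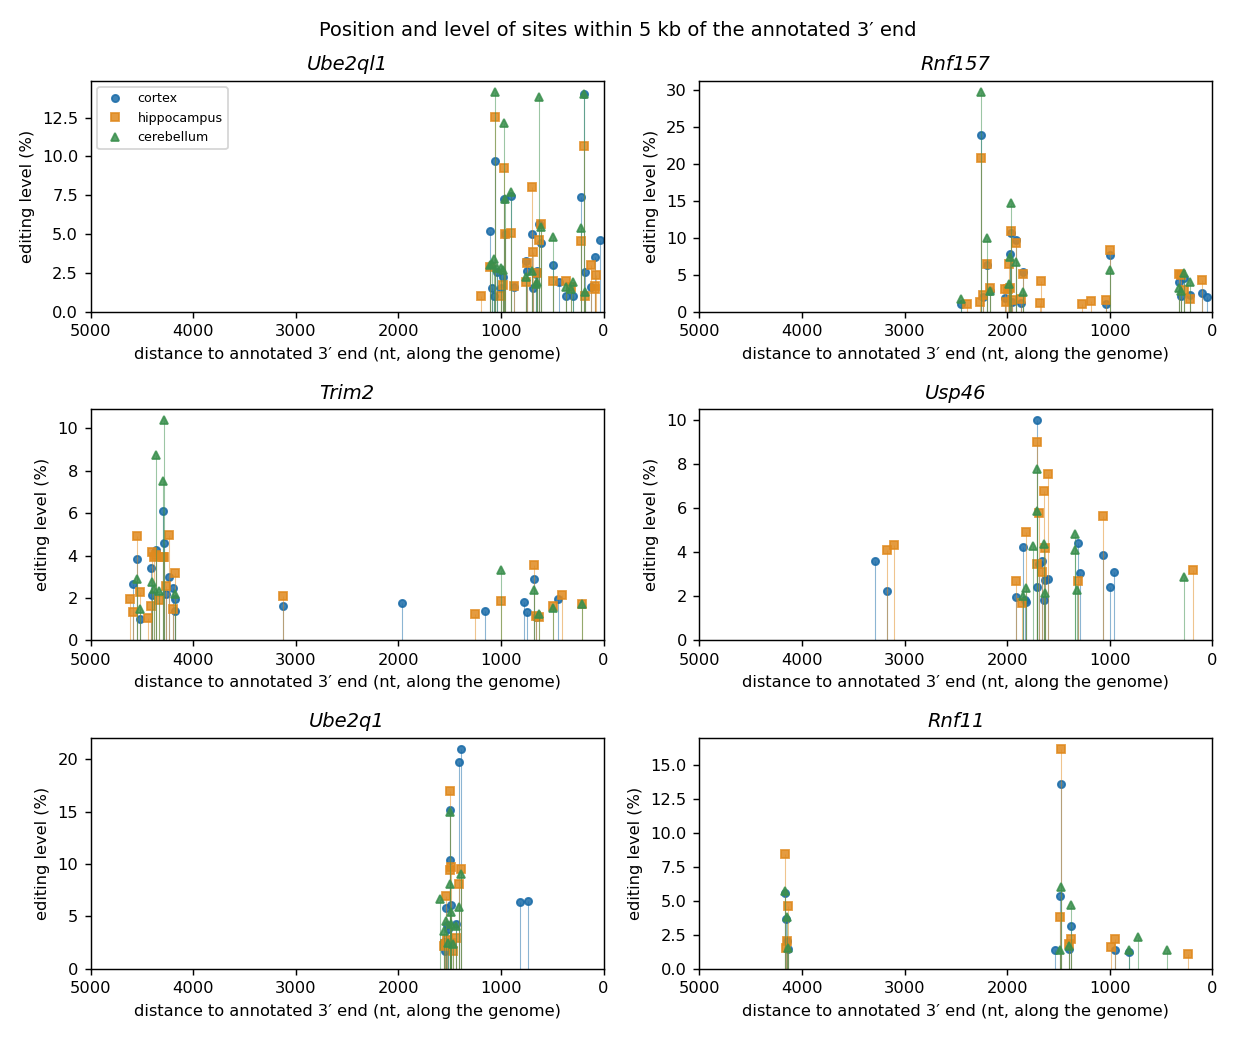
Editing level in percent (y axis) against distance to the annotated 3′ end in nt along the genome (x axis) for sites within 5 kb of that end in 6 members, by region (circles cortex, squares hippocampus, triangles cerebellum, with each vertical line running to 0). Ube2ql1 sites fill the last 1190 nt, Trim2 sites lie in separate groups, and the tallest Rnf157 site has 29.8% in cerebellum.

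The strongest sites of Rnf11 and of 2 membrane ligases had lower levels in cerebellum than in the forebrain lists. Rnf11, a small RING protein that takes part in limiting inflammatory signalling, had 13, 15 and 13 sites, and its strongest site, at position 109454332 of chromosome 4, had 13.6% in cortex, 16.2% in hippocampus and 6.05% in cerebellum. Over all its shared sites, cerebellum was higher than cortex at 7 of 10, with a median log2 ratio of 0.12, and lower than hippocampus at 7 of 9, with a median of −0.56. Marchf6, a sterol-linked ligase of the endoplasmic reticulum, had 10, 8 and 6 sites, and its strongest, at position 31459074 of chromosome 15, had 13.2%, 16.9% and 7.50%. Of 5 Marchf6 sites shared by hippocampus and cerebellum, 4 were lower in cerebellum, with a median log2 ratio of −1.17. Rnft2, a transmembrane RING ligase, had the highest level of any member below 35%, with 30.5%, 23.7% and 14.3% at position 118192888 of chromosome 5, and 23.7%, 21.6% and 13.6% at 118191396. A weaker Rnft2 site, at 118193417, ran the other way with 2.60%, 2.86% and 8.11%.

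Marchf2 and Rnf13, both ligases of the endosomal system, had most of their sites in cerebellum. Marchf2 had 2, 1 and 7 sites in cortex, hippocampus and cerebellum. The position listed in all 3, 33691602 of chromosome 17, had 3.39%, 6.33% and 20.3%. Rnf13 had 2, 2 and 9 sites, and its levels in cerebellum were at most 7.07%. Ube4a, a U-box ligase, had 1 hippocampal and 4 cerebellar sites and none in cortex, and Trim9, a neuronal ligase of axon branching, had 2, 1 and 4. The Trim9 site at position 70245751 of chromosome 12 had 2.21% in cortex, 1.26% in hippocampus and 11.3% in cerebellum.

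Trim8, a regulator of inflammatory signalling, had the reverse distribution, with 8, 3 and 1 sites. Marchf5, a ligase of the mitochondrial outer membrane, had 10, 6 and 4, and its neighbouring sites diverged. At position 37221589 of chromosome 19 the levels were 8.73%, 5.48% and 1.83%, and at 37221596, within 10 nt, they were 3.91%, 1.26% and 8.11%. With such low levels and unknown depth, the error of each value is not known.

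Of the 202 entries of cullin-RING scaffolds and adaptors over the 3 lists, 174 (86.1%) were in cortex or hippocampus, against 73.3% of all entries. Skp1a, which joins F-box proteins to Cul1, was more evenly listed, with 7, 7 and 5 sites. All 5 Skp1a sites shared by cortex and hippocampus were higher in hippocampus, with a median log2 ratio of 0.65, and all 3 shared by cortex and cerebellum were higher in cerebellum. The scaffold Cul3, which carries Kelch adaptors, had 7, 5 and 3 sites, with 7.41%, 9.74% and 6.36% at position 80267074 of chromosome 1. Cul1, which carries F-box adaptors, had 6, 4 and 3 sites with no position in all 3 lists. Cul2 and Cul5 had 1 cortical site each.

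F-box proteins numbered 17, with 55, 41 and 14 sites. Fbxl16 had 6, 12 and 1 sites, all at 3.79% or less. Fbxw2 had 11, 6 and 1, and its 2 strongest sites, both listed in cortex and hippocampus alone, had 7.83% and 9.73% at position 34805634 of chromosome 2, and 8.28% and 7.52% at 34805927. Fbxw11, which marks β-catenin and IκB for degradation, had 7, 7 and 1, and Fbxo45, a synaptic F-box protein that works with the ligase Mycbp2, had 7, 1 and 1. Fbxo11 had 3, 7 and 2. Fbxo41, a neuronal F-box protein, had 3 cortical sites alone.

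Kelch adaptors of the Klhl stem comprised 9 genes with 21 sites in cortex, 5 genes with 14 in hippocampus, and 1 gene, Klhl7, with 2 in cerebellum. Cortex or hippocampus thus held 35 of their 37 entries, against the 73.3% of all entries, and 1 of the 9 genes was in the cerebellar list, against the 59.7% of all listed genes. Apart from Klhl2, each had 1 to 4 positions, so the list is small. Klhl2 and Klhl3 both direct Cul3 to WNK kinases. Klhl2 had 8 sites in cortex and 10 in hippocampus, and none in cerebellum. Of its 7 shared sites, 6 were higher in hippocampus, and the strongest, at position 64740732 of chromosome 8, had 5.79% and 8.93%. Klhl3 had 3 and 1. Whether these genes were expressed more weakly in cerebellum was not tested.

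Deubiquitinating enzymes had 46, 24 and 21 sites over the 3 regions, and 7 of the 14 genes were listed in cortex alone, against 17.4% of all listed genes. Of the 14, 5 had a single position. Usp46, which removes ubiquitin from AMPA-type glutamate receptors, held 26 of the 63 positions, with 18, 15 and 11 sites. Its levels were higher in hippocampus: of 12 sites shared with cortex 9 were higher there, with a median log2 ratio of 0.58, and the means over those sites were 3.43% in cortex and 5.01% in hippocampus. The site at position 74000324 of chromosome 5 had 2.78% in cortex and 7.58% in hippocampus, and that at 74000364 had 1.82%, 6.80% and 4.4% over the 3 regions. Its strongest site, at 74000431, differed little, with 10%, 9.02% and 7.79%.

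Usp14, a deubiquitinase bound to the proteasome, had 6, 6 and 2 sites, and all 3 sites shared by cortex and hippocampus were higher in hippocampus. Usp31 had 5 sites, Usp32 3 and Otud5 2, in cortex alone, and Usp8, an endosomal deubiquitinase, had 2 in cerebellum alone. Otud6b had 2 sites in cortex and 3 in cerebellum, and its site at position 14810327 of chromosome 4 had 7.55% and 20.0% there. The single Usp10 site, at position 119957430 of chromosome 8, had 7.69% in cortex and 15.4% in hippocampus.

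At sites listed in 2 regions, member levels lay somewhat higher in hippocampus and cerebellum than in cortex, with wide scatter between sites. Cortex and hippocampus shared 254 member sites, 67.7% of the hippocampal ones (69.7% over all genes). Of these, 57.5% were higher in hippocampus against 48.4% over all genes, and the median log2 ratio was 0.12 against −0.02. Hippocampus was at least 2-fold above cortex at 26 member sites (10.2%, all sites 7.37%) and at least 2-fold below at 21 (8.27%, all sites 8.17%). The shares of large differences were thus near those of all sites.

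Cortex and cerebellum shared 190 member sites, 64.2% of the cerebellar ones, against 58.2% over all genes. The median log2 ratio of cerebellum over cortex was 0.25 against 0.06. Over the 15 sites at 10% or more in both lists it was −0.010, a limit that by construction leaves out sites strong in 1 list and weak in the other. Cerebellum was at least 2-fold above cortex at 36 sites (18.9%, all sites 15.1%) and at least 2-fold below at 20 (10.5%, all sites 12.0%). Between hippocampus and cerebellum, 173 sites were shared, with a median of 0.12 against 0.04 over all genes. Cerebellum was at least 2-fold above hippocampus at 30 (17.3%, all sites 15.2%) and at least 2-fold below at 18 (10.4%, all sites 11.4%). The 3 comparisons share their lists and are not independent of each other.

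**Figure D4:**
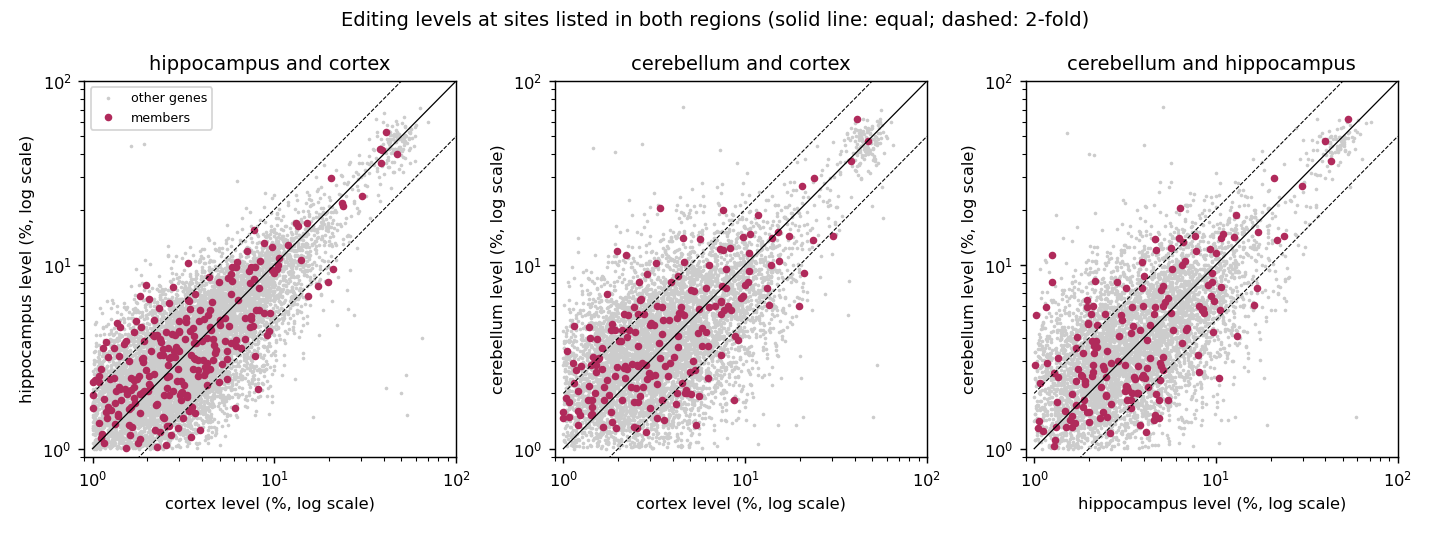
Editing level in percent on log axes at sites listed in both regions of each pair, with members in red over all other genes in grey, the solid line at equality and dashed lines at 2-fold. Member sites spread around equality among the other genes, with 26 of 254 above the upper dashed line for hippocampus over cortex and 36 of 190 for cerebellum over cortex.

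Median log2 ratios of single genes spread more widely than the medians of the whole group. Medians over few sites scatter more than medians over many, so the spread alone does not show that genes differed. Of members with 3 or more shared sites, Skp1a (0.65), Arel1 (0.64) and Usp46 (0.58) had the highest median log2 ratios of hippocampus over cortex. Ube2l3 (−0.79), Trim32 (−0.70) and Marchf5 (−0.67) had the lowest. For cerebellum over cortex, Rnf227 stood highest at 1.0 and Herc2 lowest at −1.17, and for cerebellum over hippocampus Marchf5 at 1.51 and Marchf6 at −1.17. Several of these rest on 3 sites: the 3 Rnf227 sites ranged from −1.25 to 1.23 and the 3 Marchf5 sites from −1.58 to 2.69, so neither gene had a common direction over its sites. Ube2n and Ube2b had 1 direction over all 4 sites shared by hippocampus and cerebellum.

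**Figure D5:**
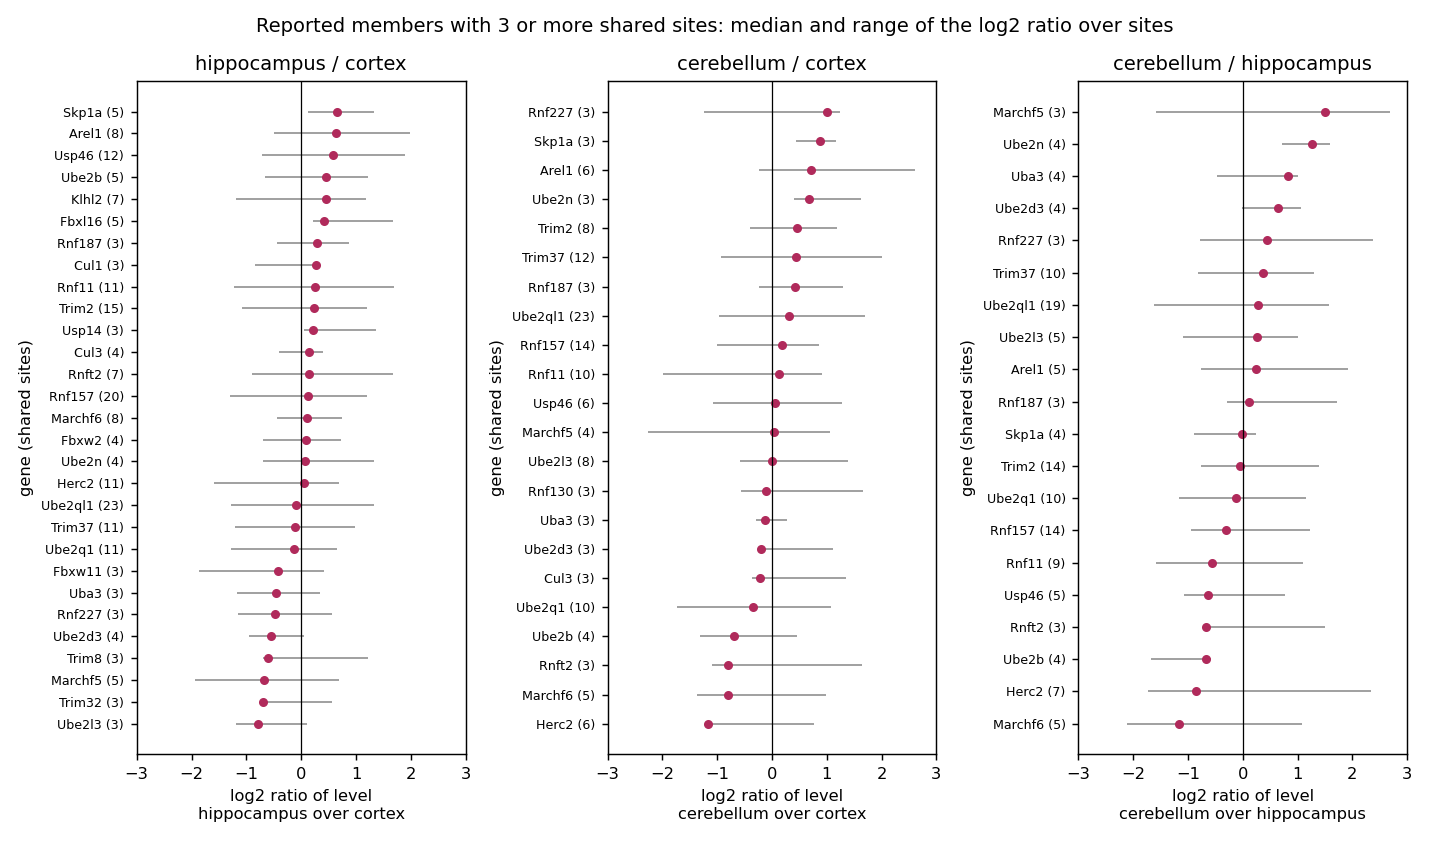
Log2 ratio of editing level between regions (x axis) for reported members with 3 or more shared sites, whose number is in brackets; dots mark the median over sites and lines the range from the lowest to the highest site. Most ranges cross 0, while others, such as Skp1a for hippocampus over cortex and Ube2n and Ube2b for cerebellum over hippocampus, lie on 1 side.

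In number of sites, cerebellum had fewer than cortex for 87 members and more for 18. The share with fewer was 71.9%, against 62.0% of all genes. Hippocampus had fewer sites than cortex for 69 members and more for 22, or 57.0% with fewer against 55.5% of all genes. The largest gains in cerebellum over cortex were those of Rnf13, Marchf2, Ube2l3 and Ube4a, and the largest deficits those of Fbxw2, Rnf157 and Klhl2. Because the lists differ in length and depth is unknown, a difference in site number is not separated here from a difference in what could be called.

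Up to 35%, member sites with a higher top level were listed in all regions more often. The bands use a site's highest level over the 3 lists, and no listed level was below 1%. Weak sites thus had less room to pass in every list, and the trend is partly built in. Of member positions whose highest level was between 1% and 2%, 3.06% were in all 3 lists. The share was 18.3% between 2% and 5%, 41.7% between 5% and 10% and 73.8% (31 of 42) between 10% and 35%. Over all genes the last value was 51.8%. Only 2 of the 42 were listed in a single region, against 22.3% over all genes.

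At 35% or more stood 5 member sites, each the only such site of its gene. Kbtbd2, a Cul3 adaptor that limits a subunit of phosphoinositide kinase, had 41.2% in cortex, 53.1% in hippocampus and 62.2% in cerebellum at position 56781903 of chromosome 6. Fbxw5 had 47.5%, 39.9% and 47.2% at position 25504845 of chromosome 2, its single site. Herc3 had 38.3%, 42.9% and 36.6% at position 58843788 of chromosome 6. That position lay 76610 nt from the annotated 3′ end. Weak Herc3 sites, at 1.45% in hippocampus and 1.95% in cortex, lay 1455 and 1011 nt from it. Rnf150 and Fbxo34 had such a site in cortex and hippocampus without cerebellum, with 39.3% and 42.1%, and 38.5% and 35.6%. None of the 5 had another listed site within 50 nt, whereas 66.7% of member sites between 10% and 35% had one. Over all genes these shares were 13.0% and 70.4%. The next levels below 35% included 30.5% in Rnft2 and 29.8% in Rnf157. Values in APOBEC1-YTHmut libraries at these positions were not analysed here.

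Most member sites lay near the end of the gene. Distances run along the genome to the 3′ end of the RefSeq gene span (GRCm38.p6, the assembly of mm10), and exons were not used. The median was 1314 nt, against 1519 nt over all genes, and 592 of the 675 sites inside their gene (87.7%) lay within 5 kb of that end, against 87.0%. Trim37 was the main exception by this measure: all 24 of its positions were over 5 kb away, from 30219 to 90937 nt. Their median distance was 31887 nt, close to the lowest. Ends of single transcripts were not used, so the distance of these sites to such an end is not known. Marchf2, with 7 positions, and Usp31, with 5, also had none within 5 kb, and 8 of 13 Fbxw2 positions lay farther than that. Rnf11 held the 4 positions outside the span of their gene. Clustering was similar to that of other genes, with 57.3% of member positions having another within 50 nt, against 59.3%.

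Genes of the same pathway outside the rule differed in how often they were listed, beside the 16.7% of all protein-coding genes. Some list entries are older symbols of the same gene, so the shares are approximate. These lists, too, were chosen with earlier results of these data known. Of 89 symbols of other HECT and RING ligases, 27 had a site (30.3%), 11 of them in every region, with 119, 82 and 46 sites. Neurl1a, a RING ligase of Notch ligands, had 19 sites in cortex and 22 in hippocampus and none in cerebellum. Mycbp2, the partner of Fbxo45, had 11, 8 and 5. Of 83 adaptors and regulators of cullin ligases, 40 had a site (48.2%), 15 of them in every region. Spop, a Cul3 adaptor, had 28, 25 and 17 sites, and Socs5 had 37, 24 and 5. Kctd12, a BTB protein and auxiliary subunit of GABA-B receptors, had the opposite distribution, with 5, 9 and 40.

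A list of other deubiquitinases that also holds the Senp proteases, which act on SUMO or NEDD8, had a site in 9 of 36 symbols (25%), among them Senp2 and Senp6. Of the 9, 2 were listed in every region, with Mindy2 at 6, 2 and 8 sites. Ubiquitin-like modifiers, shuttle factors and segregase subunits had one in 17 of 44 (38.6%), 9 of them in every region, with the shuttle factor Ubqln4 at 24, 14 and 1. Of 51 proteasome symbols, 5 had a site (9.80%), 1 of them in every region, and the 3 lists together held 6 cortical, 2 hippocampal and 2 cerebellar proteasome sites. Of sites shared by cortex and cerebellum, 4 of 35 ligase sites (11.4%) were at least 2-fold higher in cerebellum and as many lower. Of 51 adaptor sites, 9 (17.6%) were higher and 12 (23.5%) lower, and of 9 sites of the deubiquitinase and Senp list none were higher and 4 (44.4%) lower. Those 9 sites lie in no more than 3 genes, Mindy2, Uchl5 and Senp2, as cerebellum listed no others of that list. The shares over all sites were the 15.1% and 12.0% given above.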

How the data were processed

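Bulk RNA-seq libraries were made from 900 ng of total RNA, per the labels' protocols, and aligned with STAR 2.7.5 to mm10, per the submitters' processing notes. How sites were called and libraries combined is not given in the sources used here. The authors deposited 1 list per region, with a fraction for each site that is printed here as percent. The lowest value was 1%. The lists give no depth, so the precision of a level is unknown.

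Members and lists were chosen with earlier results of these data known, as was the limit of 35%. Sites were shared when chromosome, position and strand were identical. Log2 ratios have no pseudocount. Genes were matched to RefSeq (GRCm38.p6), 120 by symbol and 1 by synonym. Named members are those with the most sites, highest levels, largest differences between regions, sites in 1 region, or most sites of a stem, role list or pathway list. Rnf24, Rnf2 and other members with few sites are counted and not described, and some members are not reported here. Scripts were tested on simulated data. Alternatives were a 10% minimum, merging and sharing within 10 nt, 1.5-fold, 2 sites a gene, scaling and left-out genes or sites. Scripts ran under Python 3.11.15 with pandas 2.3.3, numpy 2.4.6, matplotlib 3.10.9 and scipy 1.17.1.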

Additional observations from a re-analysis of the deposited data

How the results depend on the processing

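Of 178 recomputed summary values, 149 stayed within the range of the reported value, including all under merging of sites within 10 nt, scaling to the same median, 1 value a gene, and without sites at 35% or more, without Ube2ql1, or without Usp6nl and members for ubiquitin-like modifiers (an alternative chosen after seeing the data). Ranges are exact binomial or order-statistic 95% intervals over sites or genes, or 1.5 times a count. With only sites at 10% or more, the lists held 20, 17 and 19 members with 26, 24 and 29 sites in cortex, hippocampus and cerebellum, and medians of 15.3%, 15.8% and 13.95%. The median log2 ratio of cerebellum over cortex was then −0.010, turning its sign. At least 2-fold differences numbered 0.0% for hippocampus above and below cortex, cerebellum above cortex, and cerebellum above and below hippocampus. Cerebellar sites were also in cortex for 51.7% and in hippocampus for 44.8%, 25.5% of sites and 31.0% of members were in all regions, and the median distance to the 3′ end was 1475 nt. This limit keeps fewer sites by construction, and in a pair it drops those strong in 1 list and weak in the other.

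Requiring 2 sites left 45 hippocampal and 48 cerebellar members. Sharing within 10 nt put 73.3% of hippocampal sites in cortex. At 1.5-fold, 23.6% of sites were higher and 21.3% lower in hippocampus than cortex, 33.2% and 17.9% in cerebellum than cortex, and 28.3% and 27.2% in cerebellum than hippocampus. No paired analysis was possible because each region has 1 list with 1 value per site for all its libraries together, although the labels repeat animal numbers over regions; for the same reason no library could be left out.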
